A study of Mus musculus with 6 samples.

Results

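The chemokine receptors of myeloid and T cells were followed as 9 genes, Ccr1, Ccr2, Ccr4, Ccr9, Cx3cr1, Cxcr3, Cxcr4, Cxcr5 and Cxcr6, found by their symbols among the 54532 genes of the count table. All 9 passed the filter on low counts and were among the 14883 genes tested. RNA-seq was performed on mouse primary T cells after coculture, in a control group and a DB2313 group of 3 samples each. DB2313, a small molecule that inhibits the ETS transcription factor PU.1 (Spi1), was applied to the partner cells of the coculture in the DB2313 group and not in the control group. The labels name the partner cells as dendritic cells, whereas the methods of the study name thioglycolate-induced peritoneal macrophages activated with IFN-γ, and describe the T cells as spleen-derived CD8T cells stimulated with anti-CD3/28 beads. Apart from DB2313, the sources give no difference between the groups. The strain and age of the mice that gave these cells, and whether the samples came from separate cultures, are not given in the sources used here, so p-values measure the spread between these samples, which may be technical.

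Chemokine receptors are G protein-coupled receptors that read gradients of small secreted proteins, the chemokines, and turn them into cell movement through inhibitory G proteins. Ccr1, Ccr2 and Cx3cr1 are best known from monocytes and macrophages. Cxcr3 and Cxcr6 are known from effector and tissue-resident T cells, Ccr9 from gut-homing lymphocytes, Ccr4 from helper, regulatory and skin-homing T cells, and Cxcr5 from B cells and follicular helper T cells. Cxcr4, the receptor for Cxcl12, is found on most leukocytes.

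Library totals ranged from 16611975 to 18596217 counts, and a count of 0 allows at most 0.161 to 0.181 CPM (counts per 1000000 counts of the library), a floor of 3 counts per library that covers counting error only. All 20 T cell markers were higher in the DB2313 group, and together they took 0.294% to 0.295% of the counts in the control group and 0.466% to 0.476% in the DB2313 group. The 18 macrophage markers took 1.05% to 1.08% and 0.387% to 0.398%, with 15 lower and 3 higher, so RNA of myeloid cells was counted in every library. Cd4 was counted beside Cd8a, at 213.0 and 118.5 CPM in the control group. Of 12 dendritic cell markers 11 were tested, with 3 higher and 7 lower, and Siglech had no count in any library. Of the other lists, 3 of 4 tested natural killer cell markers and 5 of 5 genes of progenitor granules were higher, and of 8 mast cell and basophil markers 3 were higher and 4 lower, of 7 eosinophil markers 1 and 3, and of 4 stromal markers 2 and 0. In bulk RNA, fewer cells of a type and less RNA per cell cannot be told apart. Spi1 itself was at 286 ± 6.75 CPM in the control group and 155.6 ± 6.20 CPM in the DB2313 group (SD, n = 3 each).

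Relative to all genes, Cxcr6, Cxcr3, Cxcr5 and Ccr9 rose in the DB2313 group by 1.48-fold to 1.76-fold, whereas Ccr2, Ccr1 and Cxcr4 fell to between 0.608 and 0.923 of the control level. When libraries were scaled to the T cell markers instead, 1 receptor was higher and 4 were lower, where 1.21% of all tested genes were higher and 76.9% lower. Scaled to the macrophage markers all 9 were higher, as were 94.4% of all tested genes, a share near the background that says nothing particular of the receptors. Ccr4 and Cx3cr1 did not pass the test relative to all genes. Calls were made with edgeR (quasi-likelihood F test, p adjusted by Benjamini-Hochberg and below 0.05). By this rule 45.4% of all tested genes were called, with 20.8% higher and 24.6% lower. The groups did not overlap for 7 of the 9 receptors, against 53.1% of all tested genes. No receptor passed an absolute log2 fold change of 1, a limit that 1.37% of genes passed upwards and 5.3% downwards. The median log2 fold change was 0.26 over the 9 receptors and 0.019 over all tested genes. In a two-sided exact permutation test of CPM, the 7 receptors without overlap reached p = 0.1, the smallest that 3 against 3 allow, and the other 2 had p = 0.2.

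**Figure D1:**
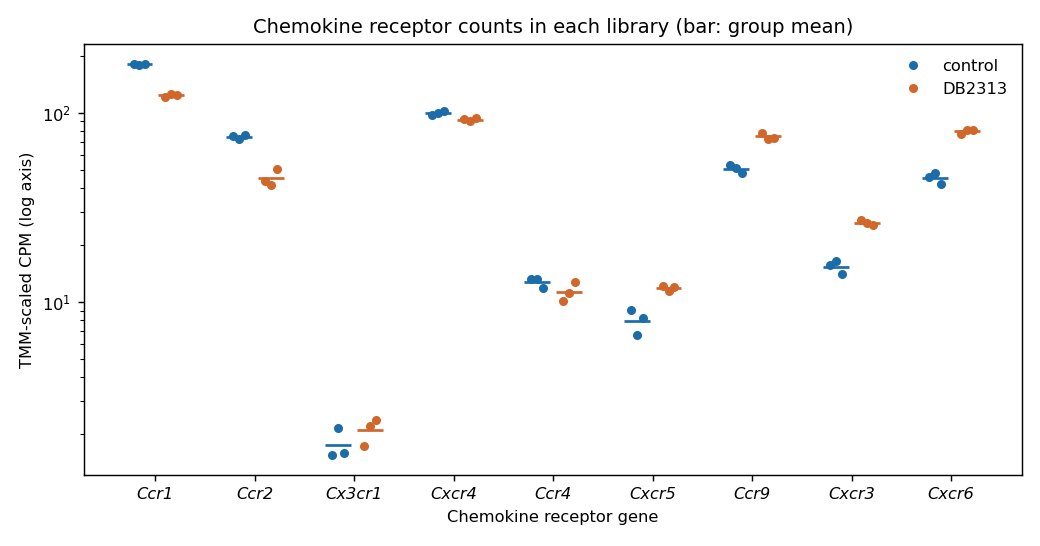
CPM scaled by TMM (log axis) of the 9 chemokine receptor genes in each library, with control libraries in blue, DB2313 libraries in orange and a bar at each group mean (n = 3 each). The DB2313 libraries lay above the control libraries for Cxcr6, Cxcr3, Ccr9 and Cxcr5 and below them for Ccr1, Ccr2 and Cxcr4, while the groups overlapped for Ccr4 and Cx3cr1.

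Ccr1, a receptor for the inflammatory chemokines Ccl3 and Ccl5 on monocytes, neutrophils and macrophages, had the highest CPM of the 9 genes. Its gene (ENSMUSG00000025804, GRCm38 chromosome 9, minus strand, 123962124 to 123968692) shares no exon base with another gene. Ccr1 was at 182, 178 and 181 CPM in the control libraries and at 122, 125 and 125 CPM in the DB2313 libraries. Every DB2313 library was lower than every control library, and the libraries within a group differed by only a few CPM. On the log2 scale the change was -0.54 (standard error, SE, 0.036, adjusted p = 1.21e-11, edgeR), a decrease to 0.687 of the control level.

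The 250 bases before the Ccr1 gene are shown because Ccr1 was the most counted receptor that fell and DB2313 acts on an ETS factor. They belong to the RefSeq promoter window of GRCm38.p6, minus strand, chr9:123968693-123968942, printed 5′ to 3′ with the ETS core letters GGAA, on either strand, in capitals.
Ccr1: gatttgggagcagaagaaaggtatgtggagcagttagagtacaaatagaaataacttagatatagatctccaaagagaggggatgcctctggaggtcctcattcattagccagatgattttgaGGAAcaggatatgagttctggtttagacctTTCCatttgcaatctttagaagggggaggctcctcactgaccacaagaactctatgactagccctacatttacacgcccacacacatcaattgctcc
The core occurs at 2 places in these bases. It is held by 96.0% of all 32851 RefSeq windows of 300 bases, so its presence does not set Ccr1 apart. The longer PU.1 motif GAGGAAG, searched on both strands, is not in the Ccr1 window and is in 13.6% of all windows.

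Ccr2, the receptor for Ccl2 through which monocytes leave the bone marrow, showed the largest decrease of the 9. The gene (ENSMUSG00000049103) lies on the plus strand of chromosome 9 from 124101950 to 124113557. It was at 75.2, 72.8 and 76.0 CPM in the control libraries and at 43.7, 41.7 and 50.5 CPM in the DB2313 libraries. The DB2313 libraries were all lower, and they spread more widely than the control libraries. Its log2 fold change was -0.72 (SE 0.063, adjusted p = 1.43e-09, edgeR), or 0.608 of the control level. Chemokine receptor genes have similar stretches of sequence, so the division of reads between related genes is uncertain.

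Cx3cr1, the fractalkine receptor of patrolling monocytes, tissue macrophages and cytotoxic effector T cells, was the least counted receptor. The control libraries held 28, 37 and 26 of its reads and the DB2313 libraries 32, 38 and 44, or 1.76 ± 0.337 and 2.12 ± 0.343 CPM (SD, n = 3 each). The groups overlapped, and the log2 fold change of 0.26 (SE 0.28, adjusted p = 0.476, edgeR) had a 95% interval from -0.32 to 0.84. Any difference within this interval remained compatible with the counts at this depth. The gene (ENSMUSG00000052336, chromosome 9 from 119901616 to 120069879) spans other genes, with 78 of its 4505 exon bases shared.

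Markers of the myeloid cells moved as well. The macrophage markers had a median log2 fold change of -1.18, from -2.16 in Mertk to 1.44 in Ms4a7. Of 7 monocyte markers, 4 were lower, among them Ly6c2 (-0.29), Chil3 (-0.27) and Vcan (-1.11), and 2 were higher. The higher ones were Plac8 and Ly6c1. Of 12 neutrophil markers, 11 were lower, and their share of the counts went from 0.199% to 0.201% in the control group to 0.0732% to 0.0749%. The summed share of the monocyte markers was 0.131% to 0.138% in the control group and 0.136% to 0.143% in the DB2313 group, a sum that includes Plac8 and Ly6c1. The part of these cells in the values of Ccr1 and Ccr2 was not tested. With libraries scaled to the summed counts of the macrophage markers, in which Lyz2 took the largest share, Ccr1 was higher by 0.99 and Ccr2 by 0.81 on the log2 scale (adjusted p = 6.91e-17 and 1.13e-10, edgeR), that is, both decreased less than that sum. Under that scaling 94.4% of all genes were higher and 1.31% lower, so these calls were close to the background. Of the 18 macrophage markers themselves, 12 were higher and 5 lower on this scale, so single markers also departed from their sum.

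Cxcr6, the receptor for Cxcl16 and a gene of resident and effector T cells, showed the largest rise of the 9. The gene (ENSMUSG00000048521) lies on the plus strand of chromosome 9 from 123806475 to 123811760, inside the span of Fyco1 on the other strand, with which it shares no exon base. It was at 46.0, 48.1 and 42.0 CPM in the control libraries and at 77.1, 81.1 and 81.4 CPM in the DB2313 libraries. All DB2313 libraries were higher, with a gap to the control libraries that exceeded the spread within either group. It rose by 0.81 on the log2 scale (SE 0.057, adjusted p = 2.76e-11, edgeR), or 1.76-fold.

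The bases before the Cxcr6 gene are given as the counterpart of the Ccr1 window. These genes moved in opposite directions relative to all genes and lie on the same chromosome. The 248 bases are from the RefSeq window of GRCm38.p6, plus strand, chr9:123806227-123806474, 5′ to 3′, with the same ETS core in capitals.
Cxcr6: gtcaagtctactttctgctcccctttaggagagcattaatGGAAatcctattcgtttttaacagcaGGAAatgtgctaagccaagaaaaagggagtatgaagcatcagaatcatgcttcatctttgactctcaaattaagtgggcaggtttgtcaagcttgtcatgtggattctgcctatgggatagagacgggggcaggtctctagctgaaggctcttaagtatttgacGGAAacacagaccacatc
Here the core occurs at 3 places. Neither window holds GAGGAAG, the T-box motif GGTGTGA or the interferon-γ activated site TTCNNNGAA, all searched on both strands.

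Cxcr3, the receptor for the interferon-induced chemokines Cxcl9, Cxcl10 and Cxcl11 on activated T cells, rose as well. The gene (ENSMUSG00000050232) is on the minus strand of the X chromosome from 101731535 to 101734269. Cxcr3 was at 15.6, 16.5 and 14.1 CPM in the control libraries and at 27.0, 26.1 and 25.4 CPM in the DB2313 libraries. The lowest DB2313 library was well above the highest control library. This was a 1.70-fold rise (log2 fold change 0.76, SE 0.087, adjusted p = 1.11e-07, edgeR). Natural killer cells also carry Cxcr3 and Cxcr6, and the 6 markers listed for them took 0.000979% to 0.00116% of the counts in the control group and 0.00181% to 0.00209% in the DB2313 group. Their part in the values of these receptors was not tested.

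Among the 8 receptors with a RefSeq window, the PU.1 motif was found in 1, Cxcr3, where it lies on the strand opposite to the gene. The motif is in 13.6% of all windows, so 1 match among 8 is near the background and does not set Cxcr3 apart. The 21 bases around the match are on GRCm38.p6, minus strand, chrX:101734149-101734169, with the motif in capitals, read as its reverse complement. They lie before the RefSeq start site at 101734147, but inside the Cxcr3 gene of the count table, which runs to 101734269.
Cxcr3: atcttcaCTTCCTCtgttcac
The T-box motif is in 3.98% and the interferon-γ activated site in 8.30% of all windows, and neither is in any of the 8. No window was found for Cxcr5. These matches describe letters and no binding was measured.

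Ccr9, the Ccl25 receptor that directs lymphocytes to the small intestine, was at 52.9, 50.9 and 48.0 CPM in the control libraries and at 78.0, 73.0 and 73.9 CPM in the DB2313 libraries. The groups were far apart relative to their spread. Ccr9 rose 1.48-fold (log2 fold change 0.57, SE 0.055, adjusted p = 8.53e-09, edgeR). The gene (ENSMUSG00000029530, plus strand of chromosome 9 from 123678439 to 123784330) has the longest gene model of the 9, at 10260 exon bases, of which 21.5% are shared with other genes. Most of the shared bases belong to AC165425.1 on the opposite strand, which had 4 counts in the first control library.

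Cxcr5, the Cxcl13 receptor that leads B cells and follicular helper T cells into follicles, was counted less often. It was at 9.03, 6.69 and 8.19 CPM in the control libraries and at 12.2, 11.5 and 12.0 CPM in the DB2313 libraries. The control libraries spread more than the DB2313 libraries, and the groups did not overlap. The rise was 1.49-fold (log2 fold change 0.58, SE 0.13, adjusted p = 0.00062, edgeR). Cxcr5 (ENSMUSG00000047880, minus strand of chromosome 9 from 44511787 to 44561877) shares 110 exon bases with Bcl9l on the other strand, whose log2 fold change was 0.072 (SE 0.057). Of 9 tested B cell markers, 6 were higher and none was lower, with a median log2 fold change of 0.47. Together the 10 listed B cell markers took 0.00505% to 0.00532% of the counts in the control group and 0.00787% to 0.00813% in the DB2313 group. The part of B cells in the Cxcr5 values was not tested.

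The T cell markers were higher by 0.32 to 0.74 on the log2 scale (median 0.59), so the receptors were also tested with libraries scaled to the summed counts of those markers. On this scale the log2 fold change was -0.013 for Ccr9, with a 95% interval from -0.13 to 0.10, and -0.0031 for Cxcr5, with an interval from -0.27 to 0.26. The rise of Ccr9 was thus within 0.13 of that of the T cell markers in either direction, whereas the interval of Cxcr5 left room for a larger difference. Cxcr3 was at 0.18 (95% interval 0.00092 to 0.37) and did not pass after adjustment (adjusted p = 0.0619, edgeR). Cxcr6 was at 0.24 (95% interval 0.12 to 0.35, adjusted p = 0.000757, edgeR). In CPM scaled by TMM, not to these markers, every DB2313 library was above every control library for Cxcr6. With libraries scaled to the T cell markers, only 1.21% of all genes were higher and 76.9% were lower. Of the 20 T cell markers themselves, 4 were higher and 6 were lower with this scaling, from -0.26 in Cd3e to 0.16 in Cd3d. The receptors that were lower were Ccr2 at -1.30, Ccr1 at -1.12, Ccr4 at -0.75 and Cxcr4 at -0.69.

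**Figure D2:**
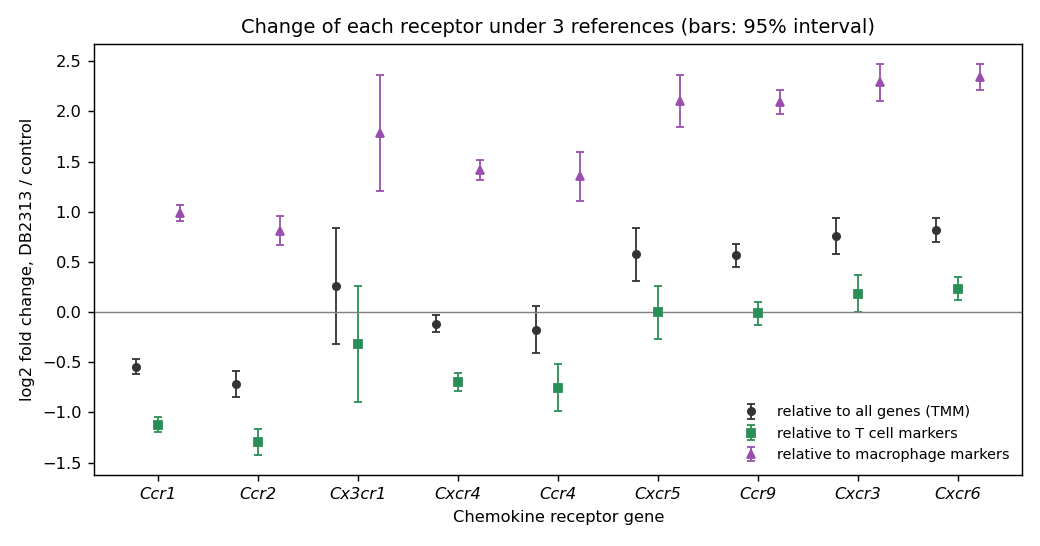
Log2 fold change (DB2313 over control) of each receptor with its 95% interval, relative to all genes (TMM, circles), to the summed T cell markers (squares) and to the summed macrophage markers (triangles), from 3 libraries per group. Relative to the T cell markers, the interval of Cxcr6 (0.12 to 0.35) lay above 0, that of Cxcr3 began just above 0, those of Ccr9, Cxcr5 and Cx3cr1 included 0, and those of Ccr1, Ccr2, Cxcr4 and Ccr4 lay below 0, while relative to the macrophage markers all 9 lay above 0.

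Ccr4, the receptor for Ccl17 and Ccl22, was at 13.3, 13.2 and 11.9 CPM in the control libraries and at 10.2, 11.1 and 12.7 CPM in the DB2313 libraries. The highest DB2313 library lay among the control libraries. The log2 fold change of -0.17 (SE 0.11, adjusted p = 0.228, edgeR) had a 95% interval from -0.41 to 0.063. Ccr4 (ENSMUSG00000047898) is on the minus strand of chromosome 9 from 114490316 to 114504916. Ccr8, another receptor of helper and regulatory T cells, was higher at 7.84 ± 0.566 and 11.0 ± 1.26 CPM (SD, n = 3 each), a difference of 0.49 on the log2 scale (SE 0.13, adjusted p = 0.00319, edgeR). Relative to the T cell markers Ccr8 was at -0.093 and did not pass the test (adjusted p = 0.518, edgeR). Foxp3, the defining transcription factor of regulatory T cells, was higher by 0.30 on the log2 scale, and lower relative to the T cell markers (-0.28). Among 5 markers of CD4 T cells, Foxp3 included, 4 were higher and 1 was lower. Relative to the T cell markers, 0 of these 5 were higher and 3 were lower, against 1.21% and 76.9% of all genes.

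Cxcr4 was the second most counted receptor and changed least among those that passed the test. The gene (ENSMUSG00000045382) lies on the minus strand of chromosome 1 from 128588199 to 128592293. It was at 97.1, 99.1 and 102.6 CPM in the control libraries and at 92.5, 90.0 and 93.3 CPM in the DB2313 libraries. The groups did not overlap, but the gap between them was smaller than the spread among the control libraries. Cxcr4 decreased to 0.923 of the control level (log2 fold change -0.11, SE 0.043, adjusted p = 0.0307, edgeR). This call was lost with DESeq2 (adjusted p = 0.103) and with library size scaling, where the log2 fold change was -0.020 (adjusted p = 0.715, edgeR). It was also lost when control replicate 2 or 3, or DB2313 replicate 1 or 2, was left out (adjusted p from 0.0597 to 0.128, edgeR).

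Levels of different receptors were compared as CPM per kilobase of exon. In the control group, Ccr1 was highest at 63.7 ± 0.794 CPM per kb, followed by Cxcr4 at 55.1 ± 1.53, Cxcr6 at 23.5 ± 1.60, Ccr2 at 11.0 ± 0.241 and Cxcr3 at 8.90 ± 0.690 CPM per kb (SD, n = 3). Below these came Ccr9 at 4.93 ± 0.238, Ccr4 at 4.13 ± 0.262, Cxcr5 at 2.39 ± 0.356 and Cx3cr1 at 0.392 ± 0.0748 CPM per kb (SD, n = 3). No neighbours in this order overlapped in the control group.

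In the DB2313 group the order differed. Cxcr4 came first at 50.8 ± 0.966 CPM per kb, ahead of Ccr1 at 43.7 ± 0.693, Cxcr6 at 41.4 ± 1.23 and Cxcr3 at 15.1 ± 0.474 CPM per kb (SD, n = 3). Ccr9 at 7.30 ± 0.263 and Ccr2 at 6.71 ± 0.683 CPM per kb overlapped, as did Ccr4 at 3.67 ± 0.415 and Cxcr5 at 3.57 ± 0.109, with Cx3cr1 last at 0.470 ± 0.0761 CPM per kb (SD, n = 3). Cxcr6 thus stood far below Ccr1 in the control group and close to it in the DB2313 group. The per-length values use the whole exon length of a gene, so they would understate a gene whose used transcripts are shorter than its model.

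Of the 9 receptors, 7 lie on chromosome 9, where many chemokine receptor genes sit near each other. Cxcr6 starts 22.1 kb after the end of Ccr9, and both rose relative to all genes, but relative to the T cell markers only Cxcr6 did. Beyond Xcr1, which was at -0.24 on the log2 scale (SE 0.31) and did not pass the test, lie Ccr1, Ccr3 and Ccr2. Of these, Ccr1 and Ccr2 were lower relative to all genes and to the T cell markers, and higher relative to the macrophage markers. Ccr3, a receptor of eosinophils, was at 0.20 (SE 0.38) and did not pass the test. At the other end, Cx3cr1 and Ccr8 lie 22.2 kb apart, and of these Ccr8 rose relative to all genes and Cx3cr1 did not pass the test. Relative to the T cell markers neither passed it.

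**Figure D3:**
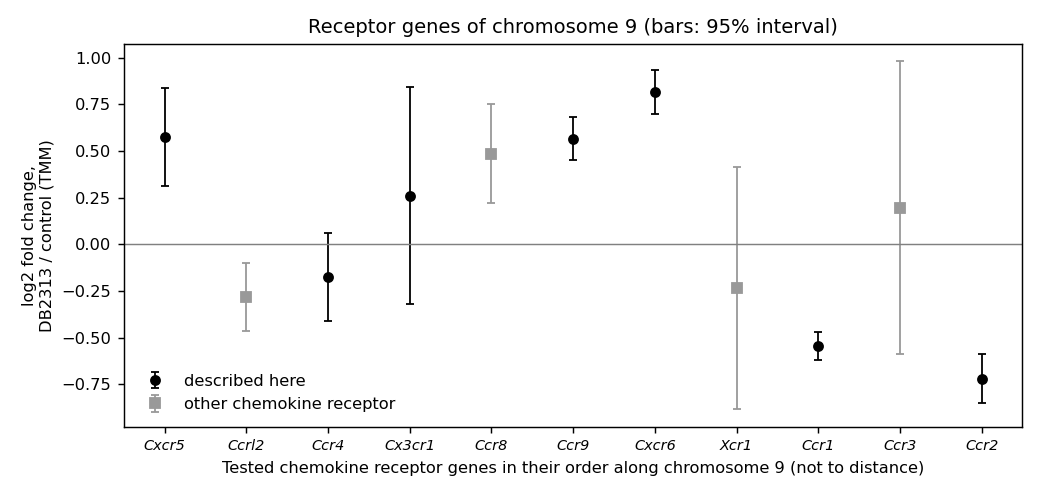
Log2 fold change (DB2313 over control, TMM) with its 95% interval for 11 tested chemokine receptor genes of chromosome 9, placed in chromosomal order and not to distance, with the receptors described here as black circles and the others as grey squares (3 libraries per group). Relative to all genes, Ccr9 and Cxcr6 lay above 0 (0.57 and 0.81), and Ccr1 and Ccr2, farther along, lay below 0 (-0.54 and -0.72).

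The ligands of the receptors were counted in the same libraries. Of 19 ligand genes 16 were tested, of which 4 were higher and 9 were lower, with a median log2 fold change of -0.54. Relative to the T cell markers 2 were higher and 12 lower, against 1.21% and 76.9% of all genes. Relative to the macrophage markers 15 were higher and 1, Ccl9, was lower, against 94.4% and 1.31% of all genes. Cxcl16, the ligand of Cxcr6, went from 218.7 ± 4.89 to 98.8 ± 6.14 CPM (SD, n = 3 each), a log2 fold change of -1.15 (SE 0.042, adjusted p = 2.00e-16, edgeR), while Cxcr6 rose. Of the ligands of Cxcr3, Cxcl9 had a log2 fold change of -0.99 and Cxcl10 of -0.35, and Cxcl11 was at 0.741 and 0.832 CPM and did not pass the test. Relative to all genes, Cxcl16 was thus opposite in sign to Cxcr6, and Cxcl9 and Cxcl10 were opposite to Cxcr3.

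Ccr2 fell relative to all genes, while its 3 ligands rose on that scale. Ccl2 went from 30.6 ± 2.36 to 39.2 ± 2.06 CPM, Ccl7 from 4.58 ± 1.75 to 12.2 ± 0.720 CPM and Ccl12 from 1.30 ± 0.683 to 6.91 ± 0.735 CPM (SD, n = 3 each). Their log2 fold changes were 0.36, 1.42 and 2.42 (adjusted p = 0.000275, 5.15e-07 and 4.49e-08, edgeR). Relative to the T cell markers Ccl7 and Ccl12 were still higher, at 0.84 and 1.84, and Ccl2 was lower at -0.22 (adjusted p = 0.00855, edgeR).

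Of the ligands of Ccr1, 3 were lower, 1 was higher and 1 did not pass the test. Ccl9 had a log2 fold change of -2.16, Ccl6 of -1.33 and Ccl5 of -1.31, against -0.54 in Ccr1, whereas Ccl7, which Ccr1 shares with Ccr2, was higher and Ccl3 was at 0.14 (SE 0.097) and did not pass the test. Ccl4, another inflammatory chemokine, was higher by 0.44. Ccl6 was the second most counted ligand, at 1728 ± 82.7 and 686 ± 15.4 CPM (SD, n = 3 each).

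The ligands of Ccr4 fell relative to all genes, while Ccr4 did not pass the test on that scale. Ccl22, the most counted ligand, was at 2190 ± 12.9 CPM in the control group and 1188 ± 15.4 CPM in the DB2313 group (SD, n = 3 each). Its fellow ligand Ccl17 had a log2 fold change of -0.72. Cx3cl1, the ligand of Cx3cr1, was lower by a log2 fold change of -0.85. Ccl25, the ligand of Ccr9, was at 6.75 and 6.15 CPM and did not pass the test (log2 fold change -0.14, SE 0.15). Cxcl12, the ligand of Cxcr4, was at 0.535 and 0.174 CPM and was not tested, and Cxcl13, the ligand of Cxcr5, had no count in any library.

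**Figure D4:**
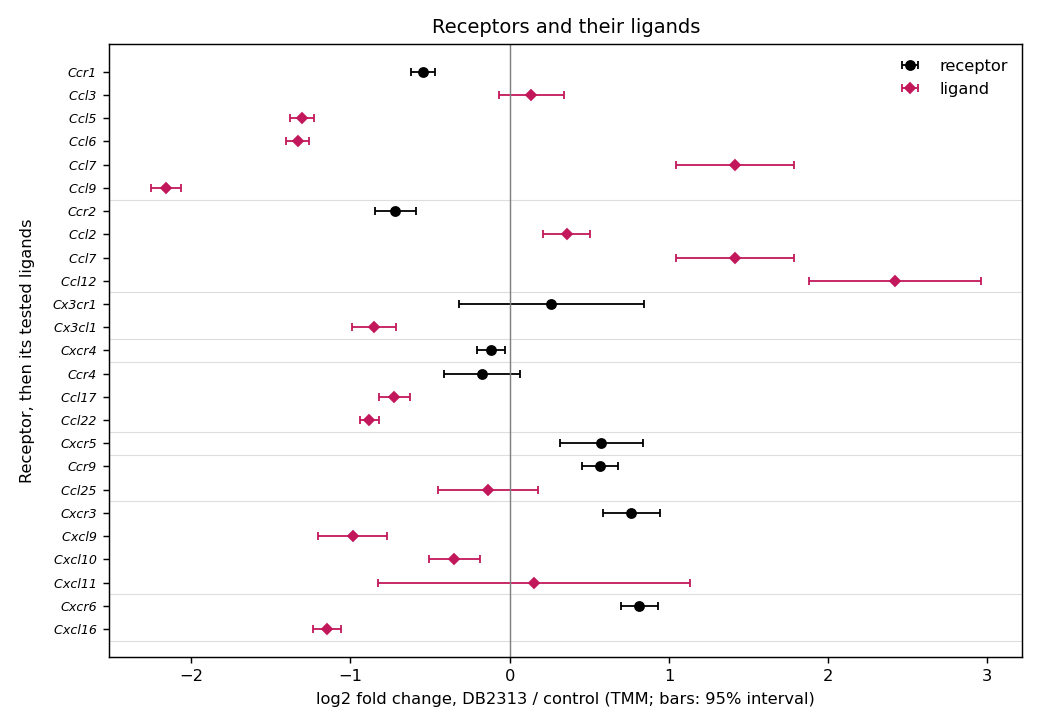
Log2 fold change (DB2313 over control, TMM) with its 95% interval for each receptor (black circles) and, beneath it, its tested ligands (pink diamonds), from 3 libraries per group. Relative to all genes, Cxcl16 (-1.15) and Cxcl9 (-0.99) lay on the opposite side of 0 from Cxcr6 and Cxcr3, and Ccl2, Ccl7 and Ccl12 (0.36 to 2.42) on the opposite side from Ccr2.

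The list of 15 other receptors also held the chemokine-like receptor Cmklr1. Of the 15, 10 were tested, of which 1 (Ccr8) was higher and 4 were lower, with a median log2 fold change of 0.0042. Relative to the T cell markers 0 were higher and 6 lower, against 1.21% and 76.9% of all genes. Relative to the macrophage markers 9 were higher and 0 lower, against 94.4% and 1.31% of all genes. Those lower relative to all genes were Cmklr1 (-1.73), Cxcr2 (-0.75), Ccrl2 (-0.28) and Ccr7 (-0.10). Ccr7, the receptor of naive T cells and mature dendritic cells, had the highest CPM of the chemokine receptors listed, at 889 ± 9.02 and 828 ± 16.7 CPM (SD, n = 3 each).

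Receptors for chemoattractants other than chemokines comprised 15 tested genes, of which 4 were higher and 10 were lower, with a median log2 fold change of -0.77. With scaling to the T cell markers 0 were higher and 12 lower, against 1.21% and 76.9% of all genes. Relative to the macrophage markers 10 were higher and 3 lower, against 94.4% and 1.31% of all genes. The largest rises were in S1pr4 (0.67), S1pr1 (0.63) and Gpr18 (0.53), receptors of lymphocytes, with S1pr1 serving their exit from lymphoid organs. The largest falls were in Fpr1 (-3.35), Fpr2 (-2.29) and S1pr3 (-1.86), the first pair being formyl peptide receptors of phagocytes.

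Of 35 genes that carry or end the signals of chemokine receptors, 3 were higher and 21 were lower, with a median log2 fold change of -0.19. Rasgrp2, which activates the integrin switch Rap1 in lymphocytes, had the largest rise at 0.98 (SE 0.042, adjusted p = 3.29e-15, edgeR), ahead of Grk6 (0.30) and Rac2 (0.13). The largest falls were in Pik3r6 (-2.12), Arrb1 (-1.03) and Pik3cg (-0.84). Pik3r6 and Pik3cg encode subunits of the phosphoinositide 3-kinase that G protein-coupled receptors activate, and Arrb1 encodes a β-arrestin that ends receptor signalling. Relative to the T cell markers, 1 of the 35, Rasgrp2, was higher and 32 were lower, against 1.21% and 76.9% of all genes. Relative to the macrophage markers 34 were higher and 1, Pik3r6, was lower, against 94.4% and 1.31% of all genes.

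Of 20 transcription factors known from the cells that carry these receptors, 8 were higher and 8 were lower, with a median log2 fold change of 0.027. With scaling to the T cell markers 0 were higher and 16 lower, against 1.21% and 76.9% of all genes. Relative to the macrophage markers all 20 were higher, as were 94.4% of all genes. Tbx21, the T-bet gene known to act on Cxcr3, was at 13.3 ± 0.880 and 14.8 ± 2.12 CPM (SD, n = 3 each) and did not pass the test (log2 fold change 0.16, SE 0.11, adjusted p = 0.266, edgeR). The largest rises were in Eomes (0.64), Klf2 (0.61) and Tcf7 (0.56). The largest falls were in Irf4 (-1.17), Irf8 (-1.08) and Zeb2 (-1.02). Relative to all genes, Bcl6, a factor of follicular helper T cells, which carry Cxcr5, was lower by a log2 fold change of -0.39, opposite in sign to Cxcr5. Relative to the T cell markers Bcl6 was at -0.96 and Cxcr5 at -0.0031, and relative to the macrophage markers both were higher (1.14 and 2.11).

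The likeness of profiles was measured as the root mean square difference between log2 CPM values over the 6 libraries, each gene centred on its own mean, among 12039 protein-coding genes. The genes most like Cxcr6 were Slc6a19 (0.013) and Ifi214 (0.056). Those most like Ccr1 were Plekho1 and Plekhb2 (both 0.017), and those most like Ccr2 were Plpp2 (0.036) and Tgfbr1 (0.040). Ccr9 was nearest to Fbxl12 (0.028) and Trib2 (0.033), Cxcr3 to Trim46 (0.032) and Gm8369 (0.042), and Cxcr5 to Mturn (0.056) and Chst13 (0.065). Cxcr4 was nearest to Kpna1 and Tufm (both 0.016), Ccr4 to Lats1 (0.033) and Klhl28 (0.035), and Cx3cr1 to Sytl3 (0.066) and Tctn1 (0.094). With 6 libraries in 2 groups, such a profile is mainly the difference between the groups.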

How the data were processed

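RNA of 6 samples, 3 per group, was sequenced. The authors aligned the reads and deposited raw counts per gene without normalization. The submitters' processing notes name CASAVA 1.8, HISAT2 2.0.5 and featureCounts 1.5.0-p3, whereas the study's methods name LifeScope, and the genome build, annotation and strand setting are not given in the sources used here. Of 54409 genes shared with GENCODE mouse release M21, 98.3% had its GRCm38 coordinates, and the exon lengths of all 9 receptors were equal to those of that release.

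Columns were matched to samples by label. Genes were tested with edgeR 4.0.16 in R 4.3.3 (filterByExpr, TMM, glmQLFit and glmQLFTest) and Benjamini-Hochberg adjustment over 14883 genes, at an adjusted p of 0.05. CPM values were scaled by TMM, so that a change is relative to the bulk of the genes. The chi-square per gene was 2.47 to 3.96 between samples of a group, above sampling noise, and 51.3 to 56.0 between groups. The common biological coefficient of variation was 4.67%. The scripts were tested on simulated counts.

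The members, gene lists and motifs were chosen with earlier results of these data known, and the GGAA motif after the values were seen. Some listed genes are not reported here, and the counts of their lists leave them out. Named besides the receptors were their ligands, other receptors, the 3 largest rises and falls of the other lists at 5 CPM or more, and the 2 nearest profiles. Marker genes and the genes Ccr8, Foxp3, Bcl6 and Tbx21 were named for their known role. Promoter windows were taken from RefSeq (GRCm38.p6), with 8 of 9 receptors matched. Alternatives were scaling by library size, upper quartile, T cell markers or macrophage markers, DESeq2 1.42.0, filters (none, or a minimum of 10 counts per sample), protein-coding genes only, a replicate block, and leaving out each sample.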

Additional observations from a re-analysis of the deposited data

How the results depend on the processing

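Apart from scaling to marker genes, 108 of 117 comparisons of the 9 receptors stayed on the same side of 0 and of the threshold, none was reversed, and the 9 that lost significance were all of Cxcr4. Its log2 fold change was -0.051 with upper quartile scaling (adjusted p = 0.345, edgeR). Scaling to the T cell markers shifted the median of all genes by -0.58 and reversed Ccr9 (-0.013), Cx3cr1 (-0.32) and Cxcr5 (-0.0031). Scaling to the macrophage markers shifted it by 1.53 and reversed Ccr1 (0.99), Ccr2 (0.81), Ccr4 (1.36) and Cxcr4 (1.42). The scaling itself moved these values.

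In place of 4 higher and 3 lower receptors, there were 1 and 4 with the T cell markers, 9 and 0 with the macrophage markers, and 0 and 0 with an absolute log2 fold change over 1. Over all genes, 3096 were higher and 3667 lower, against 4931 and 2852 with library size scaling, 4319 and 3102 with the upper quartile, 180 and 11447 with the T cell markers, 14053 and 195 with the macrophage markers, and 204 and 789 with the fold limit. The share of lower genes among calls was 54.2%, and 36.6%, 41.8%, 98.5% and 1.37% with these 4 scalings. Leaving out each sample gave 4 higher and 2 to 3 lower receptors, 2558 to 2894 higher and 3279 to 3516 lower genes.

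Samples of the 2 groups share replicate numbers, and whether same-numbered samples were paired is not given in the sources used here. Their deviations correlated at 0.014, -0.0039 and 0.019, and such low correlations cannot show that the samples were unpaired. With a replicate block, 2912 genes were higher and 3525 lower, and Cxcr4 was at -0.12 (adjusted p = 0.0558, edgeR). Depth limited Cx3cr1, with 26 to 44 counts per library.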
